A study of Homo sapiens with 4 samples.

Results

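The genes described here are enzymes of steroid and xenobiotic metabolism, chosen by symbol: aldehyde dehydrogenases, aldo-keto reductases, cytochromes P450, UDP-glycosyltransferases, glutathione S-transferases, hydroxysteroid dehydrogenases, sulfotransferases, steroid reductases and quinone oxidoreductases. Of 14006 genes with a named probe, 37 genes with 43 probes matched. They came from 4 of the 9 families: 18 glutathione S-transferases, 17 symbols beginning with HSD, ALDH2 and UGT8. Aldo-keto reductases, cytochromes P450, sulfotransferases, steroid reductases and quinone oxidoreductases had no named probe and are not analysed here, so the set is mainly hydroxysteroid dehydrogenases and glutathione S-transferases. Among the 37, RefSeq lists GSTM2P1, HSD17B7P2 and GSTT2 as transcribed pseudogenes and HSD52 as a long non-coding RNA.

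RNA levels came from Affymetrix whole-transcript arrays, with 1 array for each of 4 cultures of human prostate cancer lines. PC3-L and PC3-H are PC3 cells, a line that grows without androgen and came from metastatic bone, isolated with the antibody IIH6C4 against the laminin-binding glycan; source names call PC3-L low and PC3-H high for it. LNCaP-AI is labelled as androgen-independent LNCaP with the low glycan, grown with serum stripped of steroids by charcoal, with medium conditioned by perineural cells named in its description. LNCaP, from a lymph node metastasis, is labelled androgen-dependent with the high glycan. PC3-L and LNCaP-AI are labelled as highly motile and invasive, PC3-H and LNCaP as weakly so, and apart from the serum of LNCaP-AI the labels give all cultures the same medium with fetal bovine serum. The free-text descriptions reverse the glycan of the PC3 pair and call LNCaP moderate for it and androgen-independent; titles, source names and characteristics were followed. No group had a replicate, so no difference between 2 arrays has a replicate check and none carries an error or a p-value.

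Hydroxysteroid dehydrogenases interconvert the hydroxy and keto forms of steroids, which switches androgens, estrogens and glucocorticoids between active and inactive forms; several also act on fatty acids or sterol precursors. Glutathione S-transferases join glutathione to electrophiles and remove lipid peroxidation products and drugs. In the prostate these enzymes set local androgen levels and detoxification, and GSTP1 is known as a gene that most prostate carcinomas express weakly.

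Values are intensities on a linear scale as deposited. The median probe lay between 39.8 and 41.2 on the 4 arrays and the scale does not go to 0, so intensities in the 20s are near its floor and differences of dim genes are understated. Differences are log2(intensity + 1) of one array minus the other, and folds are on that scale. A gene entered a pair when its higher value reached the 40th percentile of all probes on its array, which lay between 33.6 and 34.8. The array labelled LNCaP-AI did not carry LNCaP markers: 6 measured markers summed to 281 on it, against 5079 on LNCaP, with 265 on PC3-L and 594 on PC3-H. The 8 measured PC3 markers summed to 6111 on it, against 343 on LNCaP, with 5929 on PC3-L and 4063 on PC3-H. EMP3 gave 2473 of the 6111, and 7 of the 8 were past 2-fold higher than on LNCaP. Not all were at PC3 levels. CXCL8 was 46.9 on the array labelled LNCaP-AI, against 497 on PC3-L and 302 on PC3-H. LCN2 was 46.0 on it, against 46.1 on PC3-L, 1881 on PC3-H and 64.5 on LNCaP. That array is therefore called the array labelled LNCaP-AI throughout, and the main differences from LNCaP are given beside the PC3 arrays. In cultures measured in bulk, fewer cells with a transcript and less of it per cell cannot be told apart.

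Promoter sequence is shown for HSD17B11 and GSTO1, the genes higher on both low-glycan arrays than on their partners, for HSD17B7, the sterol enzyme that differed in the PC3 pair, and for GSTP1, which differed most between the array labelled LNCaP-AI and LNCaP. Each is the 250 bases before the gene's start in RefSeq (GRCh38.p14), read 5′ to 3′ on the gene's strand, with capitals for matches on either strand to the AP-1 site TGACTCA, the antioxidant response core TGACNNNGC, the sterol regulatory element TCACNCCAC, the CCAAT box CCAAT and the GC box GGGCGG. The windows are chr4:87391189-87391438 on the minus strand for HSD17B11, chr10:104254642-104254891 on the plus strand for GSTO1, chr1:162790452-162790701 on the plus strand for HSD17B7 and chr11:67583562-67583811 on the plus strand for GSTP1.
HSD17B11: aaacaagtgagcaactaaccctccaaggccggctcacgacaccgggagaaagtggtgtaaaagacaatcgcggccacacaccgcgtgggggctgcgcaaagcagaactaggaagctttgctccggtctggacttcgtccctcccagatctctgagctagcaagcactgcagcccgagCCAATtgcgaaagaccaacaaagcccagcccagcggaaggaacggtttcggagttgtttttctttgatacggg
GSTO1: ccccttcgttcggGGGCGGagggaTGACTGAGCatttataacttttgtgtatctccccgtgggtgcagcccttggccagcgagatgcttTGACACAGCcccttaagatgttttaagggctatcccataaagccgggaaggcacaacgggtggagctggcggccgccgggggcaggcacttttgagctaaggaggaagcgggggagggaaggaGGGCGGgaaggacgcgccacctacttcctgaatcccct
HSD17B7: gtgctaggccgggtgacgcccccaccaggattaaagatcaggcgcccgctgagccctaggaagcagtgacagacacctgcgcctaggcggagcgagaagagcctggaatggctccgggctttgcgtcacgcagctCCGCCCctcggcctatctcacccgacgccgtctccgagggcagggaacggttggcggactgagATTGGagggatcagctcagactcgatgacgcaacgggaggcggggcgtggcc
GSTP1: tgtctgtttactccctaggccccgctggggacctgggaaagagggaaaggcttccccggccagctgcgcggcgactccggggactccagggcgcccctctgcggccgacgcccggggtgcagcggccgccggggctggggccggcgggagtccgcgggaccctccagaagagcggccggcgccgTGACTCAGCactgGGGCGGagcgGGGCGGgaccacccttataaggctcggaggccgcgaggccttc

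The GSTP1 window held an AP-1 site that is also an antioxidant response core, the 2 matches overlapping from 66 bases before the start, and 2 GC boxes. The GSTO1 window held 2 antioxidant response cores and 2 GC boxes. The HSD17B11 window held 1 CCAAT box, and the HSD17B7 window 1 CCAAT box and 1 GC box; the letters of the sterol regulatory element were in neither window. Among 35116 promoter windows of the same length, 4.20% held the AP-1 site, 10.9% the antioxidant response core, 0.883% the sterol element, 32.0% the CCAAT box and 42.6% the GC box. The GSTP1 window had 28 CG dinucleotides, more than 84.1% of all windows, against 16 for HSD17B11, 14 for GSTO1 and 23 for HSD17B7. A match of letters is a description and no binding or methylation was measured here.

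**Figure D1:**
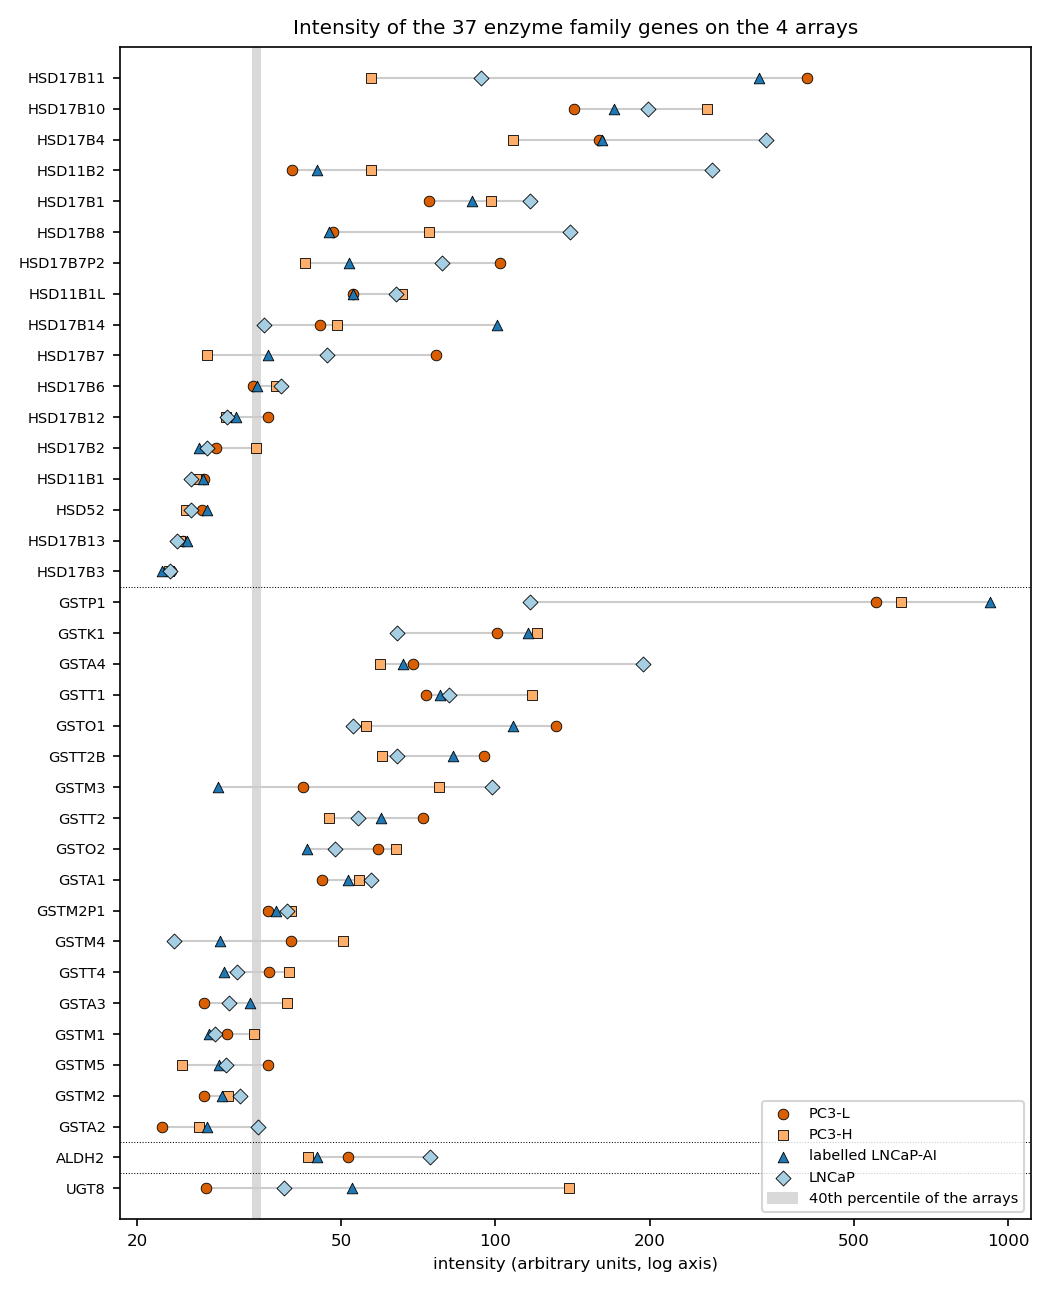
Intensity (arbitrary units, log axis) of the 37 genes on the 4 arrays, 1 point per array, with hydroxysteroid dehydrogenases on top, then glutathione S-transferases, ALDH2 and UGT8. The grey band is the 40th percentile of the arrays, 33.6 to 34.8; GSTP1 reaches 922, and 7 genes lie below the percentile of every array.

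The set spanned the whole range from the floor to the top percentiles of the arrays. Intensities of different probes are not on a common scale, so levels were compared between arrays and not between genes. HSD17B10, a mitochondrial enzyme of isoleucine breakdown and a subunit of the mitochondrial tRNA-processing complex, was 142 on PC3-L, 259 on PC3-H, 171 on the array labelled LNCaP-AI and 199 on LNCaP, at or above the 87th percentile of every array. ALDH2, the mitochondrial enzyme that oxidises acetaldehyde, was 51.7 on PC3-L, 43.1 on PC3-H, 44.8 on the array labelled LNCaP-AI and 74.6 on LNCaP. It was within 2-fold in all 4 comparisons.

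Below the 40th percentile of every array were 7 of the 37 genes, beside 17.8% of all named genes. These were HSD11B1, which activates cortisone to cortisol, HSD17B2, which oxidises testosterone and estradiol, HSD17B3, the testicular enzyme of testosterone synthesis, HSD17B13, GSTM1, GSTM2 and HSD52. HSD17B3 was 23.3 on PC3-L, 23.1 on PC3-H, 22.4 on the array labelled LNCaP-AI and 23.2 on LNCaP. Values this close to the floor give no order among the arrays. The other 30 genes were highest on PC3-L in 8 cases, on PC3-H in 10, on the array labelled LNCaP-AI in 2 and on LNCaP in 10, where all genes past the same filter had their highest value there in 25.9%, 28.2%, 19.4% and 26.5%. The 2 highest on the array labelled LNCaP-AI were GSTP1 and HSD17B14.

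Of the 30 genes, 4 had a highest value at least 4 times the lowest, namely GSTP1 (7.88 times), HSD17B11 (7.11 times), HSD11B2 (6.57 times) and UGT8 (5.09 times); this held for 4.79% of all genes. These are extremes of 4 single arrays and were not tested. HSD11B2 was high on LNCaP alone, UGT8 on PC3-H alone, GSTP1 was low on LNCaP alone, and HSD17B11 was high on the 2 arrays labelled low for the glycan.

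Between PC3-L and PC3-H, which the labels separate by the laminin-binding glycan, 5 of the 29 genes past the filter were past 2-fold, 4 higher and 1 lower, where 12.3% of all 11126 genes were past it, 8.58% higher and 3.77% lower. HSD17B11, a lipid-droplet enzyme that oxidises androstanediol to androsterone, was at 406 on PC3-L, while PC3-H had 57.1, a log2 difference of 2.81. GSTO1, the omega-class transferase that reduces dehydroascorbate and methylated arsenic, had 131 on PC3-L and 55.8 on PC3-H; it was 2.32-fold higher and the nearest to the threshold of the genes past it. HSD17B7 had 76.5 on PC3-L and 27.3 on PC3-H and was 2.73-fold higher, and its pseudogene HSD17B7P2 was 102 against 42.5, 2.37-fold higher. UGT8 had 27.3 on PC3-L and 139 on PC3-H and was 4.95-fold lower; despite its family symbol it encodes the ceramide galactosyltransferase of galactosylceramide synthesis and is no xenobiotic enzyme.

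The median log2 difference of the 29 genes was −0.14, beside −0.02 over all genes tested. By family, 3 of 12 genes of the hydroxysteroid dehydrogenase symbol were higher and 0 lower, with a median of −0.13, and 1 of 15 glutathione S-transferases was higher and 0 lower, with a median of −0.15. GSTM3, a mu-class transferase, lay just within 2-fold at a log2 difference of −0.87, with 42.1 on PC3-L and 77.7 on PC3-H. HSD17B10 had a difference of −0.86 and GSTT1 −0.68. GSTT2B and GSTT2, near-identical theta-class copies of which GSTT2 is listed as a pseudogene and whose probes may not be separated, had 0.65 and 0.60.

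HSD17B7 encodes the 3-ketosteroid reductase of cholesterol synthesis and also reduces estrone. It was 74.9 in percentile on PC3-L and 23.7 on PC3-H, so on PC3-H it was near the floor and its fold is understated. HSD17B7P2 is a close copy of it on another chromosome, and the probes may share signal. Of 17 measured genes of sterol synthesis and its regulation, a list added after the values were known, 8 were higher on PC3-L and 1 lower, with a median log2 difference of 0.54. Of all genes tested in this pair 8.58% were higher and 3.77% lower, with a median of −0.02. INSIG1, which retains the sterol sensor in the endoplasmic reticulum, had 846 on PC3-L and 68.7 on PC3-H. Log2 differences were 3.01 for the sterol oxidase MSMO1, 2.86 for the sterol carrier STARD4 and −2.26 for the sterol isomerase EBP. In the other pair 0 of the 17 were past 2-fold, beside 10.6% of all genes, with a median of −0.01. There HSD17B7 had a difference of −0.37, with 36.0 on the array labelled LNCaP-AI against 46.9 on LNCaP, and HSD17B7P2 had −0.59. Whether the pairs differ was not tested.

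**Figure D2:**
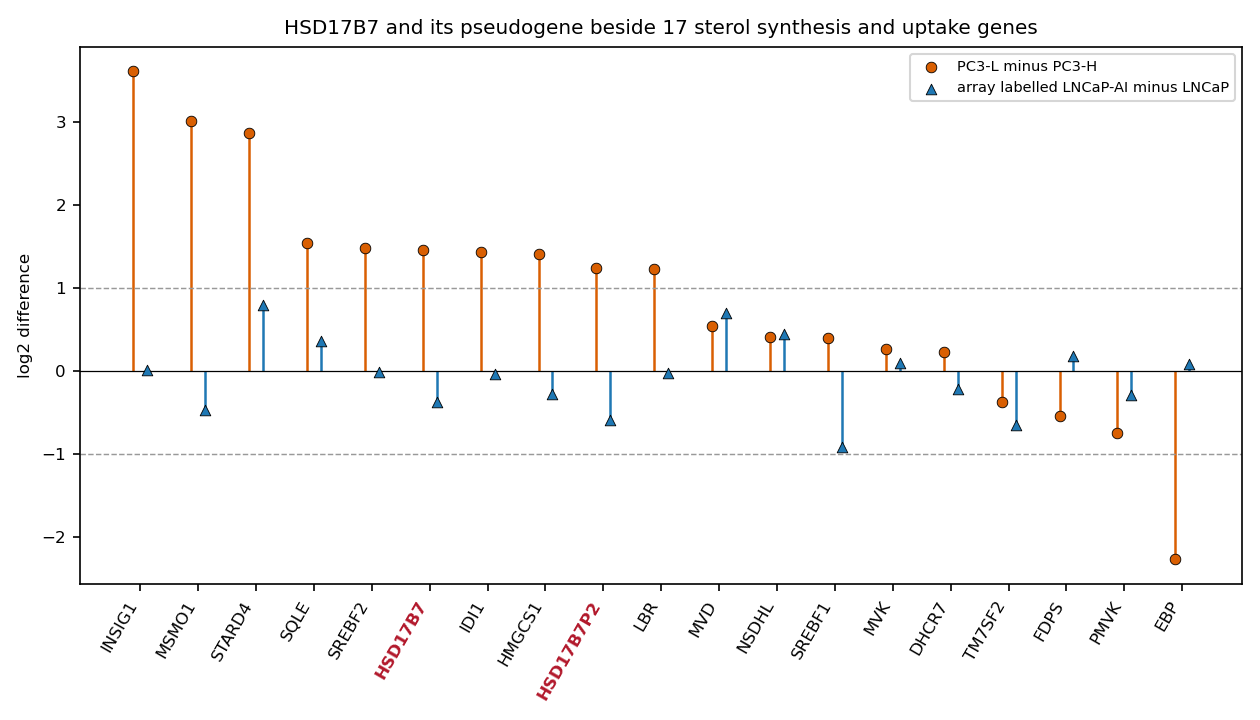
Log2 difference of HSD17B7 and HSD17B7P2 (red names) and 17 sterol genes, ordered by the PC3 pair, with circles for PC3-L minus PC3-H and triangles for the array labelled LNCaP-AI minus LNCaP. Dashed lines mark 2-fold; in the PC3 pair 8 of the 17 lie above the upper line and EBP below the lower, and in the other pair 0 lie outside the lines.

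Between the array labelled LNCaP-AI and LNCaP, which the labels separate by androgen independence and the glycan, 9 of the 25 genes past the filter were past 2-fold, 4 higher and 5 lower, where 10.6% of all 11135 genes were past it, 5.45% higher and 5.13% lower. GSTP1 was 922 on the array labelled LNCaP-AI against 117 on LNCaP, 7.82-fold higher, with 552 on PC3-L and 619 on PC3-H. HSD17B11 was 327 against 93.6, 3.47-fold higher, and GSTO1 was 108 against 52.7, 2.04-fold higher and the nearest to the threshold of the genes past it. HSD17B14, which oxidises estradiol in vitro, was 101 on the array labelled LNCaP-AI against 35.3 on LNCaP, 2.80-fold higher, with 45.5 on PC3-L and 49.2 on PC3-H.

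Lower on the array labelled LNCaP-AI was HSD11B2, which inactivates cortisol to cortisone, at 44.9 against 264 on LNCaP, 5.78-fold, with 40.2 on PC3-L and 57.1 on PC3-H. GSTM3 was 28.7 against 98.3 on LNCaP, 3.34-fold lower and below the 40th percentile of its array. HSD17B8, a reductase of mitochondrial fatty acid synthesis that also oxidises estradiol, was 47.4 against 140, 2.92-fold lower. GSTA4, the alpha-class transferase that conjugates the lipid peroxidation product hydroxynonenal, was 66.0 against 194, 2.91-fold lower. HSD17B4, the peroxisomal bifunctional enzyme of fatty acid oxidation, was 161 against 337, 2.08-fold lower. With a pseudocount of 16 HSD17B4 (log2 difference −0.99) and GSTO1 (0.86) fell within 2-fold in this pair. The 5 genes lower on the array labelled LNCaP-AI had their highest intensity of the 4 arrays on LNCaP. They were picked as higher on LNCaP in this pair. The array labelled LNCaP-AI was also close to the PC3 arrays over all probes (r = 0.961 with PC3-L and 0.926 with PC3-H). The place of the highest value is therefore largely set by the choice. Its share over all genes lower in this pair was not computed.

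HSD17B8 had 6 probes, whose log2 differences in this pair lay between −1.54 and −1.51. Their intensities were nearly the same (48.0 to 48.4 on PC3-L), so they may share signal and cannot be counted as 6 separate checks. HSD17B1, which reduces estrone to estradiol, had 2 probes with differences of −0.37 and −0.21, and no other gene of the set had more than 1. GSTK1, a transferase of mitochondria and peroxisomes, lay just within 2-fold at 0.84, with 116 on the array labelled LNCaP-AI against 64.3 on LNCaP. The median log2 difference of the 25 genes was −0.18, beside 0.00 over all genes tested. Of 11 genes with an HSD symbol 2 were higher and 3 lower (median −0.37), and of 12 glutathione S-transferases 2 were higher and 2 lower (median −0.06).

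Of the 9 genes past 2-fold in this pair, the array labelled LNCaP-AI was within 2-fold of PC3-L for 8 (88.9%), where 1040 of all 1178 genes past 2-fold were (88.3%), a share near that of the 9. The exception was HSD17B14. Of the LNCaP markers 6 of 6 had less signal there than on LNCaP, past 2-fold, and 7 of 8 PC3 markers had more, and the part of the line in these differences cannot be told apart from that of the labels. Directly between the array labelled LNCaP-AI and PC3-L, 2 of 27 genes were past 2-fold, 1 higher and 1 lower, where 2.79% of all 10942 genes were, 0.832% higher and 1.96% lower. HSD17B14 was higher there by 2.19-fold than on PC3-L, and HSD17B7 2.09-fold lower, at 36.0 against 76.5 on PC3-L; HSD17B7P2 lay just within 2-fold, at −0.96. With a pseudocount of 16 neither gene was past it.

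Between LNCaP and PC3-H, the arrays labelled high for the glycan, 6 of 28 genes were past 2-fold, 3 higher and 3 lower, where 9.95% of all 11156 genes were, 5.46% higher and 4.49% lower. Higher on LNCaP were HSD11B2 (4.56-fold), GSTA4 (3.22-fold) and HSD17B4 (3.09-fold), and lower were GSTP1 (5.26-fold), UGT8 (3.53-fold) and GSTM4 (2.09-fold). GSTM4 was 23.6 on LNCaP, near the floor, against 50.3 on PC3-H, and HSD17B8 lay just within 2-fold at 0.91. GSTP1, HSD11B2, GSTA4 and HSD17B4 were also past 2-fold between the array labelled LNCaP-AI and LNCaP. LNCaP is in both comparisons, and the share of all genes past 2-fold in both was not computed. The comparison shares an array with each of the 2 pairs above, so its values are no separate evidence.

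**Figure D3:**
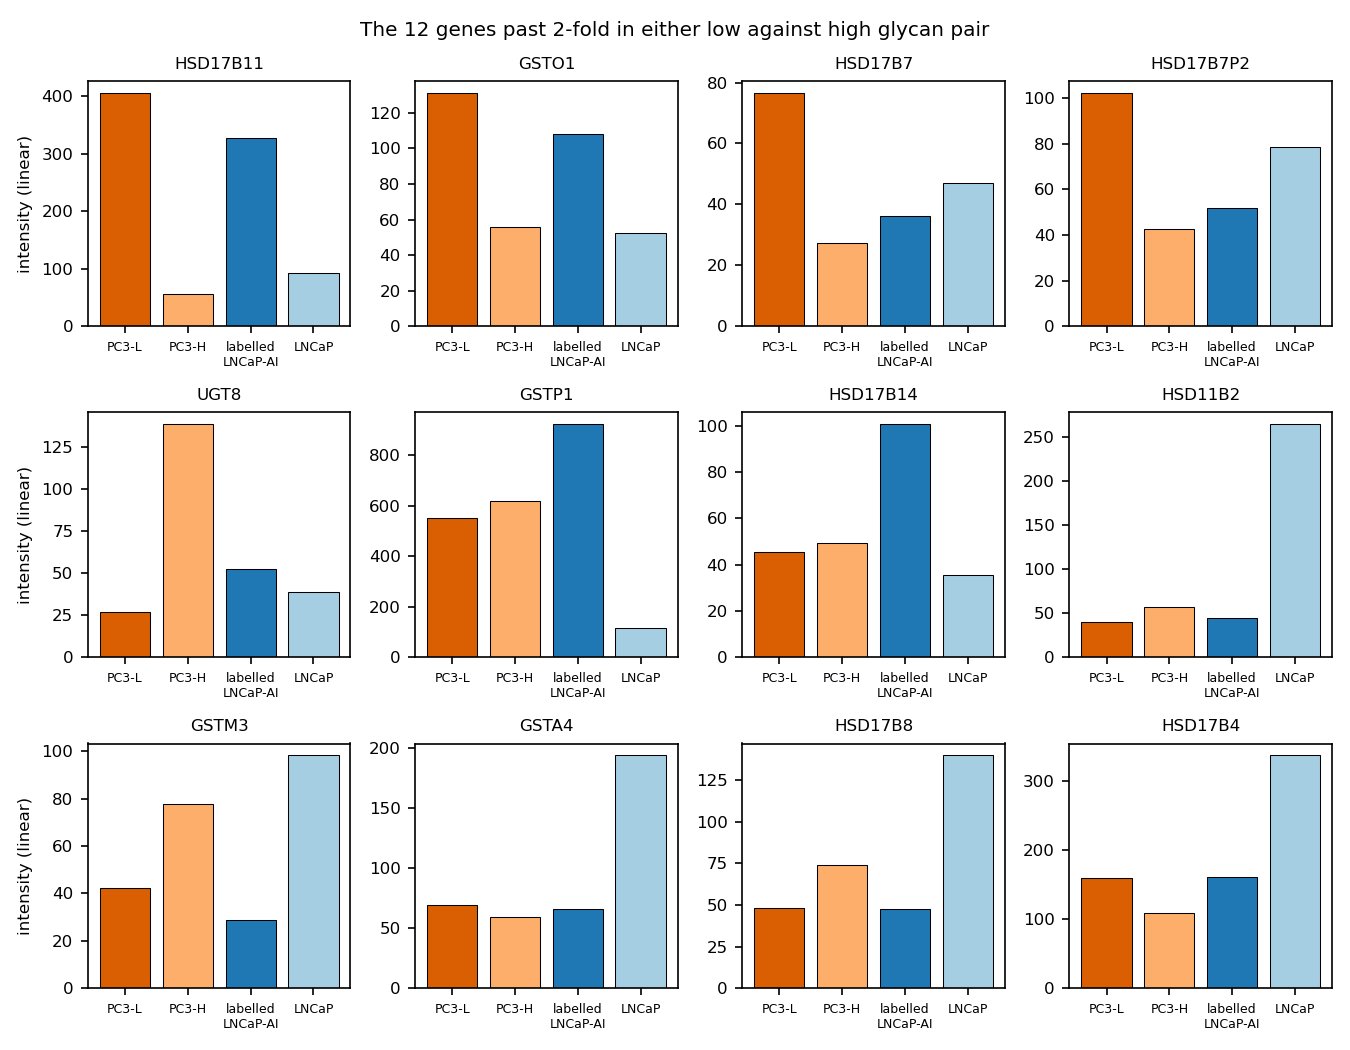
Intensity (linear axis from 0) of the 12 genes past 2-fold in either pair, 1 bar per array, with no error because each group had 1 array. HSD17B11 and GSTO1 are high on PC3-L and on the array labelled LNCaP-AI, HSD11B2, GSTA4 and HSD17B4 are high on LNCaP, and HSD17B14 is high on the array labelled LNCaP-AI.

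The 2 pairs share no array, but the array labelled LNCaP-AI was close to PC3-L (r = 0.961 over all probes), so the pairs are not independent. HSD17B11 and GSTO1 were past 2-fold higher in both, and 0 genes of the set were lower in both, where 2.20% of all 10755 genes tested in both pairs were higher in both and 1.06% lower. HSD17B11 was higher by 2.81 on the log2 scale in the PC3 pair and by 1.79 in the other, and GSTO1 by 1.22 and 1.03. With a pseudocount of 16 GSTO1 was within 2-fold in the second of these pairs, at 0.86. The remaining 10 of the 12 genes were past 2-fold in 1 pair, 3 of them between the PC3 arrays and 7 between the others, and 0 were past it in opposite directions, beside 0.474% of all genes. For 8 of the 30 genes the 2 differences had opposite signs and lay at least 1 apart on the log2 scale, beside 12.8% of all genes; these were GSTP1, UGT8, HSD17B14, GSTK1, HSD17B4, GSTA4, HSD17B7 and HSD17B7P2, and the differences between the pairs were not tested.

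The arrays labelled low for the glycan were set against those labelled high in a limma fit of all 4 arrays. It had a term for the line, leaving each gene 1 degree of freedom. Standard errors and p-values were moderated by eBayes, which borrows spread from all genes, so they are not a gene's own spread. At an adjusted p of 0.05, and likewise at 10%, 0 of 30 genes were called, and 0 of 11509 overall (0% called). An unadjusted p under 0.05 was given to 5 of the 30, where 8.81% of all genes had one. With the PC3 pair assigned as the free-text descriptions have it, 0 of the 30 had one, where 2.61% of all genes did. HSD17B11 had a log2 difference of 2.30 ± 0.345 (SE, 4 arrays; limma adjusted p = 0.242) and GSTO1 1.12 ± 0.249 (limma adjusted p = 0.316), each higher on the low array in 2 of 2 pairs. GSTM3 had −1.30 ± 0.322 (limma adjusted p = 0.365), HSD17B8 −1.08 ± 0.332 (limma adjusted p = 0.465) and HSD11B2 −1.51 ± 0.547 (limma adjusted p = 0.555), each lower in 2 of 2 pairs. Under that opposite assignment the fitted differences of HSD17B11 and GSTO1 turned to −0.51 and −0.10. The line of the array labelled LNCaP-AI enters this fit as labelled. Because that array was close to PC3-L, the same direction in 2 of 2 pairs is not 2 independent observations. The 5 genes named were also those with a limma unadjusted p under 0.05. That choice favours genes with like differences in both pairs, so their shared direction is largely set by it. The share of all genes with a shared direction was not computed. In the PC3 pair GSTM3 (−0.87), HSD17B8 (−0.61) and HSD11B2 (−0.50) were within 2-fold.

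**Figure D4:**
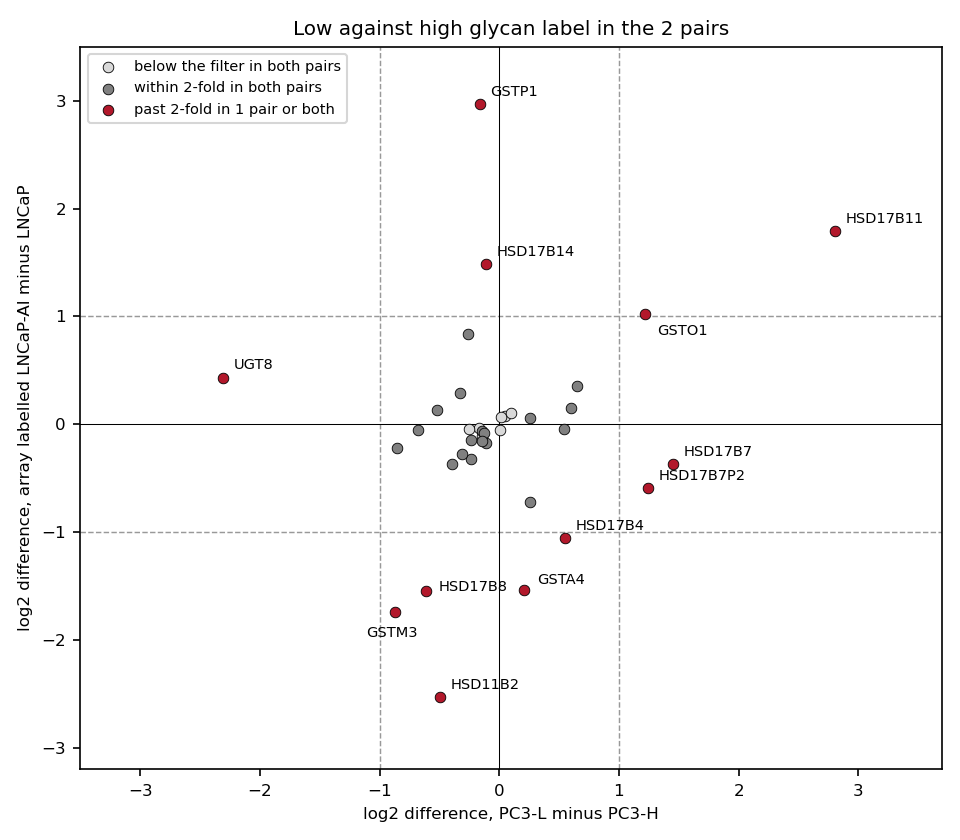
Log2 difference of the 37 genes in PC3-L minus PC3-H (horizontal) and in the array labelled LNCaP-AI minus LNCaP (vertical), with dashed lines at 2-fold and 1 point per gene. HSD17B11 (2.81 and 1.79) and GSTO1 (1.22 and 1.03) lie beyond both lines at the upper right, and 0 genes lie beyond both at the lower left.

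The genes most like the 4 with the widest range were read from Pearson correlations of log2 intensities over the 4 arrays, given as a description. HSD17B11 was most like GSTT2B (r = 0.981), GSTO1 (r = 0.963) and HSD52 (r = 0.949), the last of which varied only near the floor. HSD11B2 was most like HSD17B8 (r = 0.965), GSTA4 (r = 0.962) and GSTA2 (r = 0.909). UGT8 was most like GSTA3 (r = 0.985), GSTT1 (r = 0.955) and HSD17B10 (r = 0.895), and GSTP1 was most like GSTK1 (r = 0.967), HSD17B13 (r = 0.867) and HSD11B1 (r = 0.809). With 4 points such values are easily high, and HSD17B13 and HSD11B1 were dim on every array.

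Several of the genes are neighbours on their chromosomes in RefSeq, and their differences between arrays were set side by side. HSD17B11 lies next to HSD17B13 on chromosome 4, which was below the 40th percentile of every array, so its differences could not be read. GSTO1 lies next to GSTO2 on chromosome 10. GSTO2 was 59.1 on PC3-L and 64.0 on PC3-H, a log2 difference of −0.11, and 42.9 on the array labelled LNCaP-AI and 48.6 on LNCaP, a difference of −0.18. On chromosome 1 GSTM4, GSTM2, GSTM1, GSTM5 and GSTM3 lie in a row; GSTM3 was past 2-fold between the array labelled LNCaP-AI and LNCaP, where the other 4 were below the filter, and in the PC3 pair 0 of the 3 that passed the filter were past 2-fold. On chromosome 6 GSTA4 was past 2-fold between the array labelled LNCaP-AI and LNCaP, with GSTA1 at −0.15, GSTA2 at −0.32 and GSTA3 below the filter. Genes within the GSTM and within the GSTA cluster are similar in sequence, so the split of signal among them is uncertain.

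Other genes of these pathways were read from 5 lists. Their counts, and those of the cell type lists further below, stand beside these shares of all genes tested. In the PC3 pair 12.3% were past 2-fold, 8.58% higher and 3.77% lower. In the other pair 10.6% were, 5.45% higher and 5.13% lower. Of 9 measured genes of steroid handling and enzyme cofactors, 1 was past 2-fold in each pair. This was CYB5A, cytochrome b5, the partner that promotes the androgen-forming lyase step, lower in both: it had 205 on PC3-L and 672 on PC3-H (3.27-fold), and 151 on the array labelled LNCaP-AI against 1407 on LNCaP (9.28-fold). The list medians were 0.07 and −0.01.

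Of the 17 measured genes of the NRF2 pathway, the regulator of antioxidant and conjugating enzymes, 16 passed the filter in each pair, and in the PC3 pair 3 were higher and 1 lower (median 0.05). HMOX1, which degrades haem, had 572 on PC3-L and 74.9 on PC3-H (7.55-fold), NFE2L2, which encodes NRF2 itself, was 205 against 74.9 (2.72-fold) and thioredoxin TXN was 1927 against 742 (2.59-fold), while the biliverdin reductase BLVRB was 223 against 572 (2.56-fold lower). In the other pair 1 was higher, HMOX1 (187 on the array labelled LNCaP-AI against 76.0 on LNCaP, 2.44-fold), and 1 lower, the glutathione reductase gene GSR (180 against 883, 4.88-fold), with a median of −0.16.

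Of the 7 measured xenobiotic receptors and partners 6 passed the filter in each pair. PPARG, a lipid-sensing nuclear receptor, had 24.5 on PC3-L and 103 on PC3-H, which is 4.08-fold lower, and was the 1 past 2-fold in that pair (list median −0.22). In the other pair 2 were higher and 0 lower (median −0.06). AHR, the aryl hydrocarbon receptor, was 389 on the array labelled LNCaP-AI against 60.7 on LNCaP (6.31-fold), with 240 on PC3-L and 334 on PC3-H, and its target TIPARP was 355 against 57.9 (6.05-fold), with 242 on PC3-L and 150 on PC3-H.

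Of the retinoid and alcohol dehydrogenase list 18 of 20 measured genes passed the filter in each pair. In the PC3 pair 1 was higher, the carbonyl reductase CBR4 (2.96-fold), and 2 lower, the retinoic acid carrier CRABP2 (4.85-fold) and DHRS4 (2.02-fold), with a median of −0.22. In the other pair 2 were higher, the retinal reductase DHRS3 (4.87-fold) and CBR3 (2.44-fold), and 3 lower, DHRS7 (2.92-fold), HSDL2 (2.43-fold) and the retinal reductase RDH11 (2.12-fold), with a median of −0.30. Of 24 measured genes of other conjugation and oxidation, 17 passed in the PC3 pair with 1 higher and 0 lower (median 0.15), and 14 in the other pair with 1 higher and 3 lower (median −0.20). PAPSS2, which makes the sulfate donor, was the gene higher in both, with 192 on PC3-L and 59.6 on PC3-H (3.19-fold) and 83.1 on the array labelled LNCaP-AI against 33.3 on LNCaP (2.45-fold). The monoamine oxidase gene MAOA (23.7-fold) and the microsomal transferases MGST2 (log2 difference −1.85) and MGST1 (2.35-fold) were the genes lower in this pair.

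Summed intensities of the lists of other cell types, on PC3-L, PC3-H, the array labelled LNCaP-AI and LNCaP in that order, ran 71.7, 76.1, 70.2 and 67.3 for 2 fibroblast markers and 357, 411, 327 and 457 for 7 perineurial and Schwann cell markers. For 4 leukocyte markers they were 761, 434, 684 and 236, and for 4 endothelial markers 170, 198, 194 and 184. For 5 hepatocyte markers they were 175, 186, 185 and 184, and for 3 adrenocortical markers 100.4, 99.9, 95.2 and 94.2. Hepatocyte and adrenocortical markers, from tissues rich in these enzymes, were past 2-fold in 0 of 2 in each pair for the first, and in 0 of 2 and 0 of 1 for the second. Fibroblast markers were past 2-fold in 0 of 1 and endothelial markers in 0 of 4 in each pair. The perineurial and Schwann cell list had 1 of 6 lower in each pair, ERBB3, which epithelial cells also express, and the leukocyte list 1 of 2 higher in each, CD68, with 630 on PC3-L and 290 on PC3-H and 553 on the array labelled LNCaP-AI against 102 on LNCaP. Of the other leukocyte markers NKG7 was within 2-fold in each pair, and CD14 and LYZ were below the filter, so the sums of that list follow CD68. The part of other cells in the values above was not tested.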

How the data were processed

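Total RNA was biotin-labelled with a whole-transcript kit and hybridised to 1 Affymetrix array per culture, per the labels' protocols. The deposited values are linear intensities, judged from their range; the series' design text names GeneSpring GX 12.6, 2-fold and a false discovery rate of 10%, and the sources used here do not say how probes were summarised and normalised. Of 37934 probes 14952 had 1 gene symbol in the platform annotation, 0 had several and 22982 had none; the probe with the highest mean stood for a gene. All 37 members matched RefSeq (GRCh38.p14) by Entrez identifier, 25 of them with a promoter sequence. A pseudocount of 1 was added before log2, genes below the 40th percentile of a pair were left out, and 2-fold was the threshold. Python 3.11.15, R 4.3.3 and limma 3.58.1 (two-sided, Benjamini-Hochberg over all genes) were used. The limma fit was also run on simulated data with effects larger than those fitted for the members, which does not measure its power here. Array number limits the precision.

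Members and lists were chosen with earlier results of these data known. Genes named were every member past 2-fold in either pair, those with a highest value at least 4 times the lowest, the brightest of each family and the 5 brightest, those nearest the threshold, the 3 most alike to each of the 4 with the widest range, up to 3 per pathway list and pair, and markers past 2-fold. Neighbours, dim members, sterol genes and other members were added after their values were seen. Alternatives are in the closing section.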

Additional observations from a re-analysis of the deposited data

Results flagged for a closer look

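For 8 members the difference between low and high glycan label had opposite signs in the 2 pairs and was at least 1 apart on the log2 scale, which held for 12.8% of all genes; with 1 array per group the difference between the pairs was not tested. GSTP1 differed by −3.13 between the pairs (−0.16 for PC3-L minus PC3-H, 2.97 for the array labelled LNCaP-AI minus LNCaP). UGT8 differed by −2.74 (−2.31 and 0.43), HSD17B14 by −1.59 (−0.11 and 1.48) and GSTK1 by −1.10 (−0.26 and 0.84). HSD17B7P2 differed by 1.84 (1.24 and −0.59), HSD17B7 by 1.82 (1.45 and −0.37), GSTA4 by 1.75 (0.21 and −1.54) and HSD17B4 by 1.61 (0.55 and −1.06). The second value of each rests on an array that went against its line label at the line markers.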

How the results depend on the processing

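The pair counts were recomputed with a pseudocount of 16, no filter, a filter at the 60th percentile, quantile normalization, median centring and the mean over all probes of a gene. Counts of members stayed within 1.5 times, apart from the array labelled LNCaP-AI against PC3-L, which had 0 past 2-fold with a pseudocount of 16 in place of 2. The share of all genes past 2-fold moved too. In the PC3 pair it was 12.3%, with 8.99% under the pseudocount of 16 and 15.7% under the filter at the 60th percentile. Between the array labelled LNCaP-AI and LNCaP it was 10.6%, with 8.14% and 13.5% under the same settings. Of 370 values of named members under these 6 alternatives, 0 turned direction, 365 stayed on their side of 2-fold and 5 fell within it. Many of the 370 could not change. No filter (63 values) and the filter at the 60th percentile (55 values) leave a log2 difference as it is. The mean over probes (63 values) moves only genes with several probes. All 5 that fell within 2-fold did so with the pseudocount of 16, which shrinks differences of dim genes by construction. In the array labelled LNCaP-AI against LNCaP these were GSTO1 (0.86) and HSD17B4 (−0.99), against PC3-L HSD17B14 (0.92) and HSD17B7 (−0.83), and in LNCaP against PC3-H GSTM4 (−0.75), all log2 differences. The opposite assignment of the PC3 pair, as in the free-text descriptions, turns each sign, so that 1 member was higher and 4 lower.

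The limma count at 0.05 was 0 members as reported and without the line term, with the opposite PC3 assignment, no filter, quantile normalization, a pseudocount of 16 or an intensity trend in eBayes. With the trend 2 members, GSTM3 and HSD17B11, passed at 10%, and 115 genes overall passed 0.05; over the settings the limma adjusted p ranged from 0.0690 to 0.998 for GSTM3 and from 0.0741 to 0.998 for HSD17B11. The cause was not tested. An unadjusted p under 0.05 was given to 5 members without the line term and with the trend, to 4 with no filter, quantile normalization or the pseudocount of 16, and to 0 with the opposite PC3 assignment. That assignment turned the fitted log2 difference of HSD17B11 to −0.51 in place of 2.30 and of GSTO1 to −0.10 in place of 1.12, and kept GSTM3 (−0.44), HSD17B8 (−0.47) and HSD11B2 (−1.02) negative. The labels give no replicate numbers, so no replicate block was fitted; the line term pairs the arrays by labelled line. Values near the floor limit what dim members can show.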
